A study of Oryza sativa with 36 samples.

Results

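The 9 cellulose synthase (CESA) genes of rice, chosen by their locus identifiers from 55801 genes in the deposited gene tables, were examined in root and shoot of 3 genotypes. They fall into 6 genes assigned to the primary wall, OsCESA1 (LOC_Os05g08370), OsCESA2 (LOC_Os03g59340), OsCESA3 (LOC_Os07g24190), OsCESA5 (LOC_Os03g62090), OsCESA6 (LOC_Os07g14850) and OsCESA8 (LOC_Os07g10770), and 3 assigned to the secondary wall, OsCESA4 (LOC_Os01g54620), OsCESA7 (LOC_Os10g32980) and OsCESA9 (LOC_Os09g25490). All 9 passed the filter on low counts in both organs, and all 9 symbols matched the reference gene table. The plants were Nipponbare wild type, rice labelled as homogeneous transgenic for FTO, and rice likewise transgenic for a variant of FTO without demethylation activity, called FTOmut here. All 3 were in the Nipponbare background and were harvested at 15 days from hydroponic culture, and the labels name no other treatment. RNA sequencing gave 2 libraries for each genotype and organ, 12 in all, and sequencing of RNA immunoprecipitated with an antibody to N6-methyladenosine (m6A) gave 12 peak lists in the same arrangement. The sources used here do not give the transgenes' promoter or the number of independent lines, and the transgene transcript itself was not analysed here.

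CESA proteins are the catalytic subunits of the cellulose synthase complexes in the plasma membrane, where they join glucose units from UDP-glucose into the glucan chains of cellulose. One set of CESA proteins works in growing cells, which have a thin primary wall, and another in cells that lay down a secondary wall after growth, such as xylem vessels and the fibres of the culm. In rice, mutants of OsCESA4, OsCESA7 and OsCESA9 have brittle culms. FTO is an animal enzyme that removes the methyl group from m6A in RNA. The comparison of FTO with FTOmut covers the activity of the enzyme together with any other difference between the transgenic lines. These cannot be told apart here. The comparison of either with wild type concerns the transgenic line as a whole.

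The libraries held 12.97 to 17.88 M gene counts. Of these counts 2 loci on chromosome 9 (LOC_Os09g01000 and LOC_Os09g00999) took 64.8 and 63.6% in the FTO shoot libraries, 14.3 to 34.4% in the other shoots, 23.2 and 22.0% in the FTO roots and 1.22 to 4.30% in the other roots. Green-tissue markers (5 genes listed for antenna proteins, Rubisco small subunits and Rubisco activase) summed to 103.4 to 138.5 CPM (counts per M of the library total as adjusted within each organ by trimmed mean of M-values, TMM) in the wild-type and FTO roots, and to 867.5 and 518.4 in the FTOmut roots. In shoot they summed to 4376 to 7482 CPM in 5 libraries and to 1075 in wild-type shoot replicate 2. Root markers (4 genes, among them the silicon transporters Lsi1 and Lsi2) summed to 1014 and 951.0 CPM in wild-type roots, 439.6 and 405.8 in FTO roots, 1261 and 811.9 in FTOmut roots, and 2.41 to 5.21 in shoots. Genes with 10 or more counts numbered 46166 in FTOmut root replicate 2 and 36486 in FTOmut shoot replicate 2, against 18065 to 30053 in the other libraries. What part these library differences have in the results was not tested. Levels are log2 CPM on the same scale, so a level is compared between genotypes of 1 organ only.

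In wild-type root the primary wall genes made up most of the CESA transcript, led by OsCESA1, OsCESA3 and OsCESA8. In CPM per kilobase of gene, OsCESA1 stood at 118.7 ± 7.10 (SD, n = 2), OsCESA3 at 108.5 ± 11.3 and OsCESA8 at 100.9 ± 1.41. The libraries of OsCESA3 overlapped those of its neighbours on either side in this order. OsCESA6 followed at 56.4 ± 5.70 and OsCESA5 at 28.1 ± 7.04. OsCESA4, the highest secondary wall gene, was at 21.8 ± 3.58 and overlapped OsCESA5. OsCESA9 at 10.4 ± 0.786 and OsCESA7 at 9.67 ± 1.604 overlapped each other. OsCESA2 was the lowest of the 9 at 5.11 ± 0.576, below all 3 secondary wall genes.

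The order of the levels was not the same in the transgenic roots. In FTO root OsCESA1 (71.1 ± 0.778) and OsCESA3 (67.8 ± 0.903) came first, and OsCESA6 (61.7 ± 2.42) stood above OsCESA8 (38.9 ± 1.01), the reverse of wild type. In FTOmut root OsCESA6 (53.2 ± 21.6), OsCESA1 (51.8 ± 15.4), OsCESA3 (46.9 ± 6.45) and OsCESA8 (36.9 ± 8.79) overlapped in their libraries. OsCESA5, OsCESA4, OsCESA9, OsCESA7 and OsCESA2 followed in that order in all 3 roots, at 24.7, 16.7, 7.99, 6.71 and 4.85 in FTO and 24.97, 11.1, 5.47, 5.21 and 3.40 in FTOmut.

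In shoot OsCESA3 and OsCESA1 led in every genotype, at 58.2 ± 31.9 and 41.3 ± 21.4 (wild type), 68.5 ± 1.08 and 66.2 ± 2.68 (FTO), and 49.8 ± 15.2 and 47.1 ± 17.1 (FTOmut), and their libraries overlapped in each genotype. OsCESA8 stood at 32.2 ± 24.9, 44.0 ± 2.24 and 28.1 ± 12.3 in the same groups, and OsCESA6 at 14.4 ± 4.86, 17.0 ± 0.961 and 29.4 ± 15.3. OsCESA4 (13.1 ± 5.49, 15.4 ± 0.610 and 17.6 ± 4.35) stood above OsCESA5 (8.82 ± 4.03, 12.6 ± 2.01 and 12.99 ± 5.56), unlike in root. OsCESA7, OsCESA9 and OsCESA2 lay between 4.36 and 8.68 in all 3 genotypes, and OsCESA2 was the lowest in each.

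Summed over the 6 primary wall genes, the level per kilobase was 423.1 and 412.2 in wild-type root, 268.3 and 269.8 in FTO root and 263.1 and 171.0 in FTOmut root. The 3 secondary wall genes summed to 43.8 and 39.9 in wild-type root, 30.6 and 32.2 in FTO root and 26.0 and 17.6 in FTOmut root. For both sums the wild-type libraries were above all 4 transgenic ones. In shoot the primary sum was 214.7 and 104.0 (wild type), 219.4 and 208.7 (FTO) and 219.3 and 125.9 (FTOmut). The secondary sum there was 34.2 and 20.3, 34.0 and 31.3, and 38.3 and 26.5 in the same order, and the genotypes overlapped for both sums.

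**Figure D1:**
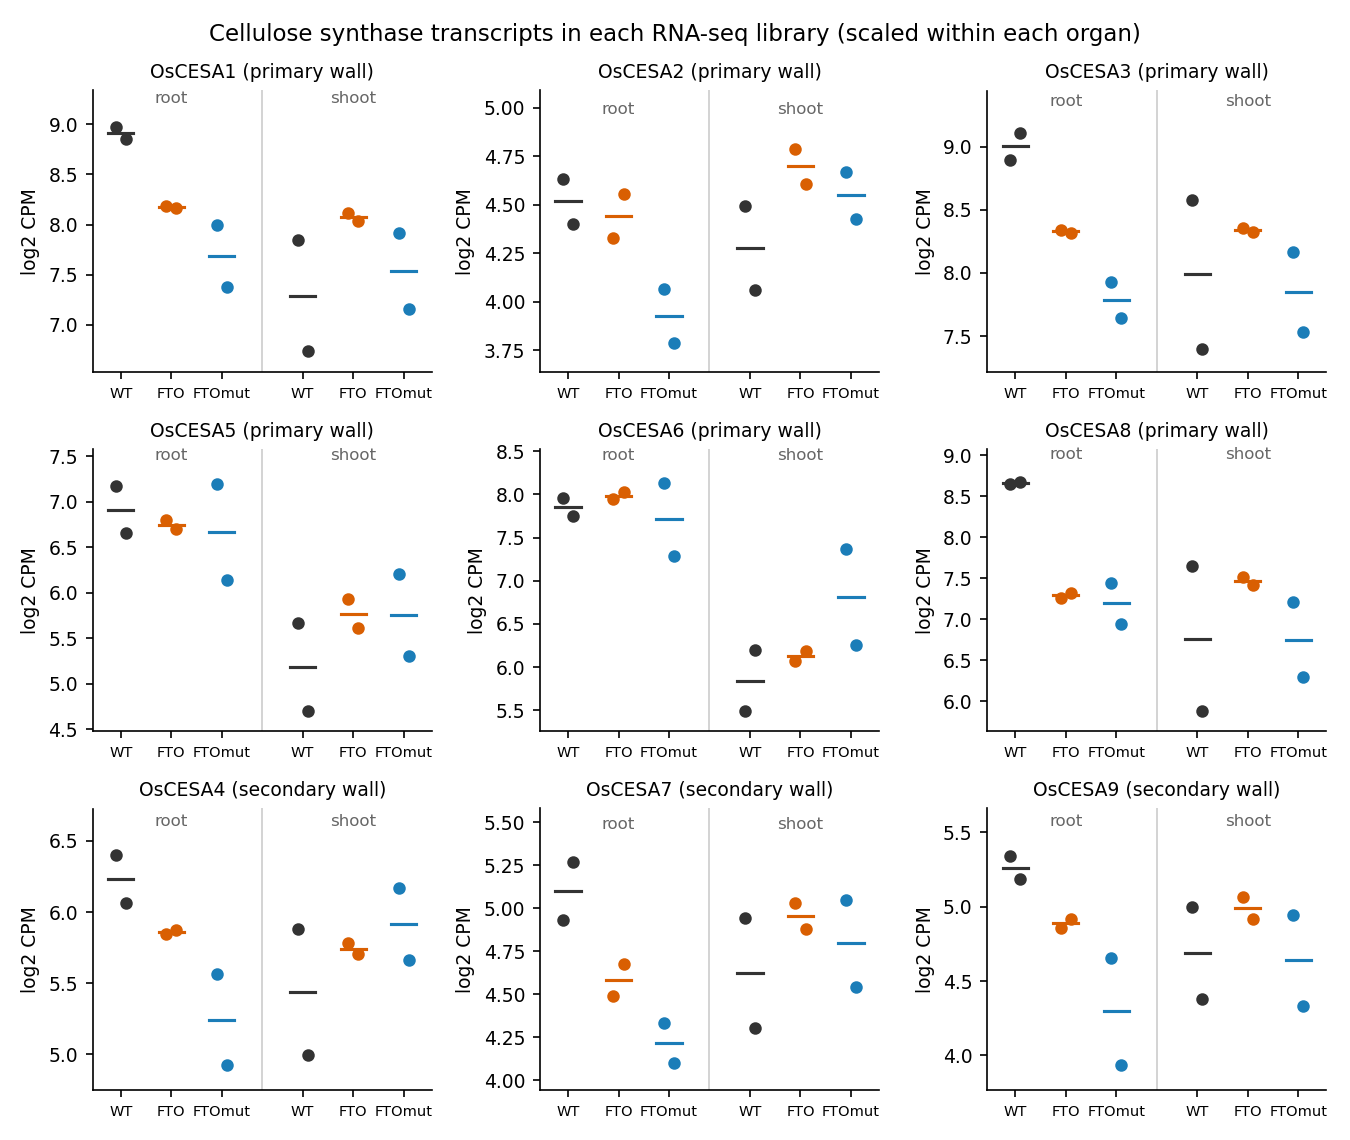
Log2 CPM of each CESA gene (vertical axes, each with its own range) in the 12 RNA-seq libraries, by genotype and organ, with 1 point per library and a bar at the mean of 2. Root and shoot were scaled separately. OsCESA8 is at 8.65 and 8.68 in wild-type root against 6.95 to 7.44 in the 4 transgenic root libraries.

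In FTO root, 3 primary wall genes were lower than in wild type and none of the 9 was higher. OsCESA8 fell furthest, OsCESA1 and OsCESA3 fell less, and OsCESA2, OsCESA5, OsCESA6 and the 3 secondary wall genes did not pass the test. The test was edgeR's two-sided quasi-likelihood test over the 6 root libraries, with Benjamini-Hochberg adjusted p under 0.05 over the 32467 genes tested. By the same test 35.1% of all genes tested were called, 18.8% lower and 16.3% higher, so 3 of 9 lies near the background. Both transgenic lines were compared with the same wild-type libraries.

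OsCESA8 was at 8.65 and 8.68 log2 CPM in the wild-type roots, 7.27 and 7.32 in the FTO roots, and 7.44 and 6.95 in the FTOmut roots. The 2 wild-type libraries lay above all 4 transgenic libraries by more than 1 log2 unit. The change in FTO was -1.37 (log2, SE 0.19), or 2.59-fold lower, with an edgeR adjusted p of 8.66e-05. It passed the threshold without each of the 4 libraries compared and without FTOmut root replicate 2, at -1.65 to -1.40, and with scaling to the ERCC spike-in. In FTOmut the change was -1.45 (SE 0.19), 2.73-fold lower, with an edgeR adjusted p of 3.68e-05, and it held without each of the 4 libraries compared, at -2.09 to -1.20.

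OsCESA1 was at 8.98 and 8.85 log2 CPM in wild-type root, 8.19 and 8.17 in FTO root, and 7.99 and 7.38 in FTOmut root. Those groups did not overlap, and wild type was highest. It fell in FTO by 0.74 (SE 0.21, edgeR adjusted p = 0.0128) and in FTOmut by 1.20 (SE 0.21, edgeR adjusted p = 0.000330). OsCESA3 had the same order, with 8.90 and 9.11 log2 CPM in wild type, with FTO at 8.34 and 8.32 and FTOmut at 7.93 and 7.65. It fell by 0.68 in FTO (SE 0.18, edgeR adjusted p = 0.00995) and by 1.21 in FTOmut (SE 0.18, edgeR adjusted p = 0.000100). In FTO neither call held once a single wild-type or FTO library was removed. Without wild-type replicate 1 or 2 the adjusted p of OsCESA1 was 0.0966 or 0.0736 and that of OsCESA3 0.0564 or 0.204. Without FTO replicate 1 or 2 it was 0.292 or 0.249 for OsCESA1 and 0.339 or 0.292 for OsCESA3. The changes in FTOmut held without each of the 4 libraries compared.

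OsCESA6 and OsCESA5 were the primary wall genes with no call in either transgenic root. OsCESA6 was at 7.96 and 7.75 log2 CPM in wild type, with FTO at 7.95 and 8.03 and FTOmut at 8.14 and 7.28, and the groups overlapped. Its change was 0.13 (SE 0.24) in FTO and -0.084 (SE 0.24) in FTOmut. OsCESA5 was at 7.17 and 6.66 in wild type, with FTO at 6.80 and 6.70 and FTOmut at 7.20 and 6.15, with changes of -0.19 (SE 0.33) and -0.17 (SE 0.33). The FTOmut libraries disagreed for both genes. Without FTOmut root replicate 1 the change of OsCESA5 was -1.16 and that of OsCESA6 -0.94. That fit rests on replicate 2 as the only FTOmut root library, the one with 46166 genes at 10 or more counts. Without replicate 2 the changes were 0.30 and 0.31.

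OsCESA2 was at 4.63 and 4.40 log2 CPM in wild-type root, with FTO at 4.33 and 4.56 and FTOmut at 4.07 and 3.79. FTO overlapped wild type, with a change of -0.075 (SE 0.20), while both FTOmut libraries were below the others. Its fall of 0.59 in FTOmut (SE 0.20, edgeR adjusted p = 0.0208) did not pass without wild-type replicate 1 (adjusted p = 0.147), wild-type replicate 2 (0.0612) or FTOmut replicate 2 (0.116).

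The secondary wall genes did not pass edgeR's test over the 6 libraries in FTO root, and all 3 fell in FTOmut root. OsCESA4 was at 6.40 and 6.07 log2 CPM in wild type, with FTO at 5.85 and 5.88 and FTOmut at 5.56 and 4.92. OsCESA7 was at 4.93 and 5.27 in wild type, with FTO at 4.49 and 4.68 and FTOmut at 4.33 and 4.10. OsCESA9 was at 5.34 and 5.19 in wild type, with FTO at 4.86 and 4.92 and FTOmut at 4.66 and 3.94. For each of the 3 genes the groups did not overlap and stood in the order wild type, FTO, FTOmut.

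In FTO the changes were -0.38 (SE 0.22, edgeR adjusted p = 0.176) for OsCESA4, -0.53 (SE 0.20, adjusted p = 0.0518) for OsCESA7 and -0.38 (SE 0.22, adjusted p = 0.191) for OsCESA9. All 3 passed once FTOmut root replicate 2, which shares the estimate of spread, was left out of the fit, so that 6 of the 9 genes were then lower in FTO, where 55.8% of all genes tested were called and 27.9% were lower. OsCESA7 also passed in FTO with DESeq2 (-0.64, adjusted p = 0.049), with relative log expression scaling (adjusted p = 0.029) and in the edgeR fit of only the 4 libraries compared (adjusted p = 0.0209). OsCESA9 passed in that last fit too (-0.355, edgeR adjusted p = 0.0472), where 58.7% of all genes tested were called and 29.5% were lower. In FTOmut OsCESA4 fell by 0.97 (SE 0.22, edgeR adjusted p = 0.00248), OsCESA7 by 0.89 (SE 0.20, adjusted p = 0.00211) and OsCESA9 by 0.93 (SE 0.23, adjusted p = 0.00383). OsCESA7 did not pass without wild-type replicate 2 (adjusted p = 0.0588).

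Over the 9 genes, FTOmut root had 7 lower and 0 higher than wild type, where 61.6% of all genes tested were called, 29.1% lower and 32.5% higher. The median CESA change was -0.93 log2 in FTOmut against 0.06 over all genes, and -0.38 in FTO against 0.19 over all genes. Averaged within each group, the 6 primary wall genes were -0.48 log2 apart from wild type in FTO and -0.82 in FTOmut, and the 3 secondary wall genes -0.42 and -0.95.

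The FTO calls changed with the scaling. FTO roots held 22.7 and 23.3 gene counts per ERCC spike-in count, against 9.83 to 12.4 in the other roots. Scaled by the spike-in, the median change of all genes in FTO root was 0.69 and that of the CESA genes 0.11. Relative to the median of all genes, the CESA median was -0.58 under the spike-in and -0.57 under TMM. Under the spike-in OsCESA8 was called lower at -0.87, OsCESA1 (-0.24) and OsCESA3 (-0.16) no longer passed, and OsCESA2, OsCESA4, OsCESA5 and OsCESA9 were above 0 without passing, as was OsCESA6. In FTOmut the same 7 genes were called under both scalings.

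**Figure D2:**
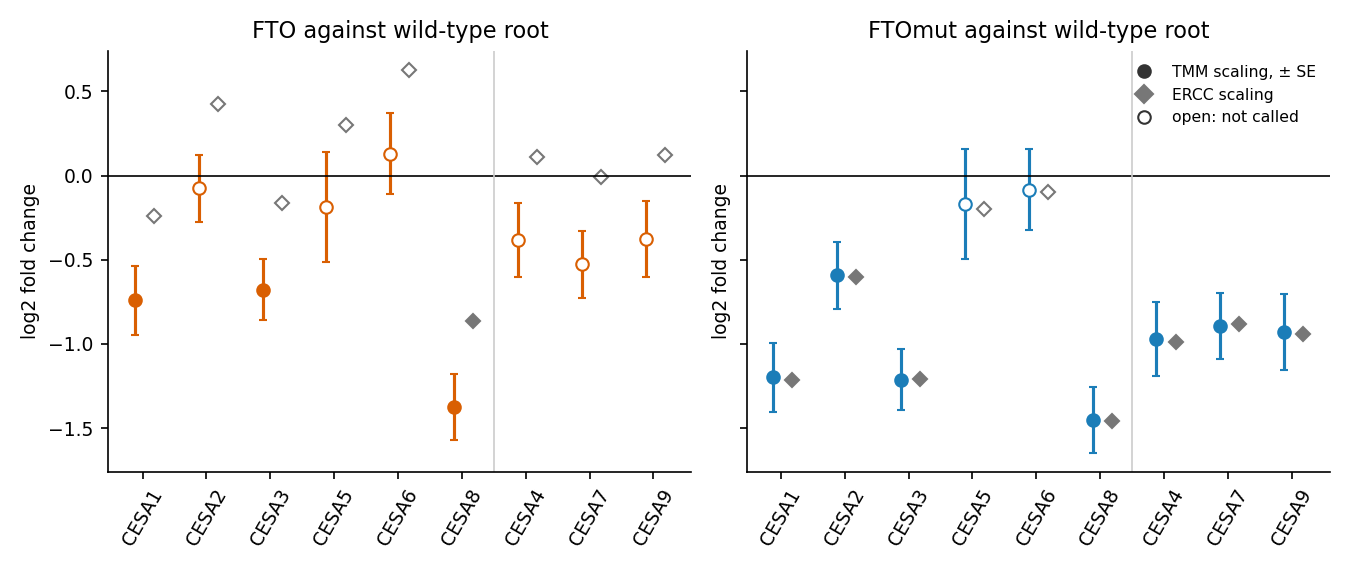
Log2 fold change against wild-type root (vertical axes) for the 9 CESA genes in FTO (left) and FTOmut (right), with primary wall genes left of the grey line. Circles with bars are TMM estimates ± SE, diamonds are spike-in scaled estimates, and open symbols did not pass the adjusted threshold. In FTO the spike-in values lie above the TMM values for all 9 genes, and OsCESA8 is the lowest under both.

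No CESA gene differed between FTO and FTOmut root in edgeR's test, where 20.3% of all genes tested were called. An unadjusted p under 0.05 was reached by 5 genes, OsCESA1, OsCESA2, OsCESA3, OsCESA4 and OsCESA9, each higher in FTO by 0.46 to 0.59 log2, and DESeq2 called 0. OsCESA8 differed by 0.077 (SE 0.19). These counts changed with the FTOmut libraries. Without FTOmut root replicate 1 all 9 genes were higher in FTO, by 0.66 to 1.27, where 39.2% of all genes tested were called and 23.8% were higher. Without replicate 2 only OsCESA5 was called, lower at -0.57, where 21.9% of all genes were called. With spike-in scaling 7 genes were higher in FTO, all but OsCESA5 and OsCESA6, while the median of all genes was 0.40 and 32.7% of them were called higher.

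The make-up of the primary wall group in root differed between genotypes on a scale that library scaling cannot move. OsCESA8 made up 23.6 and 24.7% of the summed primary wall level per kilobase in wild-type root. It made up 14.2 and 14.7% in FTO root and 16.4 and 17.95% in FTOmut root. OsCESA6 made up 14.3 and 12.7% in wild type, with FTO at 22.4 and 23.5% and FTOmut at 26.0 and 22.2%. For both genes wild type did not overlap the transgenic groups, and no test was made of these shares. OsCESA1 made up 29.3 and 27.6% in wild type and 23.8 to 26.7% in the 4 transgenic libraries. The secondary wall group kept a similar make-up, with OsCESA4 at 48.3 to 55.5% of its sum across all 6 root libraries.

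In shoot no CESA gene passed the test between any genotypes. Of 24463 genes tested, edgeR called 0 (0%) in each of the 3 shoot comparisons, 835 for FTO and 2179 for FTOmut, each against wild type, and 4139 between the transgenic lines had an unadjusted p under 0.05, and DESeq2 called 41, 532 and 1388. None of the 9 CESA genes was among the genes with an unadjusted p under 0.05 or the DESeq2 calls. Wild-type shoot replicate 2 stood apart. The Spearman correlation between the wild-type shoot replicates across genes, which are not independent replicates, was 0.802, against 0.923 to 0.993 in the other groups.

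OsCESA8 showed the widest split, with 7.65 and 5.88 log2 CPM in the wild-type shoots, with FTO at 7.52 and 7.42 and FTOmut at 7.21 and 6.29. OsCESA3 was at 8.58 and 7.40 in wild type, with FTO at 8.36 and 8.33 and FTOmut at 8.16 and 7.53. In both genes the wild-type libraries spanned all 4 transgenic ones. OsCESA1 was at 7.84 and 6.74 in wild type, with FTO at 8.11 and 8.03 and FTOmut at 7.91 and 7.15. Its FTO libraries lay above both wild-type libraries, with a change of 0.68 (SE 0.52).

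OsCESA6 went the other way, at 5.49 and 6.19 log2 CPM in wild-type shoot, with FTO at 6.07 and 6.19 and FTOmut at 7.37 and 6.26. The FTOmut libraries were above all others, with a change of 1.03 (SE 0.48, edgeR adjusted p = 0.635). Among the other 5 genes, OsCESA5 ran from 4.70 to 6.21 log2 CPM over the 6 shoot libraries, OsCESA2 from 4.06 to 4.79, OsCESA4 from 5.00 to 6.17, OsCESA7 from 4.31 to 5.05 and OsCESA9 from 4.33 to 5.07. Their lowest library was wild-type replicate 2, apart from OsCESA9, whose lowest was FTOmut replicate 2. Changes of these 5 genes ran from 0.24 to 0.52 in FTO and from -0.046 to 0.56 in FTOmut. Without wild-type shoot replicate 1, OsCESA8 was called higher in FTO at 1.19, where 3.38% of all genes were called higher. Without replicate 2, where 12.3% were called, OsCESA6 was called higher in FTOmut at 1.17 and OsCESA3 and OsCESA8 lower at -0.97 and -1.09. Within the primary wall sum OsCESA6 held 5.10 and 17.1% in wild-type shoot, with FTO at 7.45 and 8.48% and FTOmut at 18.3 and 14.8%.

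The balance of primary to secondary wall transcript separated the organs in every genotype. The summed primary wall level was 9.66 and 10.3 times the summed secondary wall level in wild-type root, 8.76 and 8.38 times in FTO root, and 10.1 and 9.70 times in FTOmut root. In shoot it was 6.28 and 5.12 times in wild type, 6.45 and 6.67 times in FTO, and 5.73 and 4.75 times in FTOmut. All 6 root libraries lay above all 6 shoot libraries. In root the FTO libraries were below those of the other genotypes, and in shoot they were above them. These ratios are free of library scaling and were not tested.

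**Figure D3:**
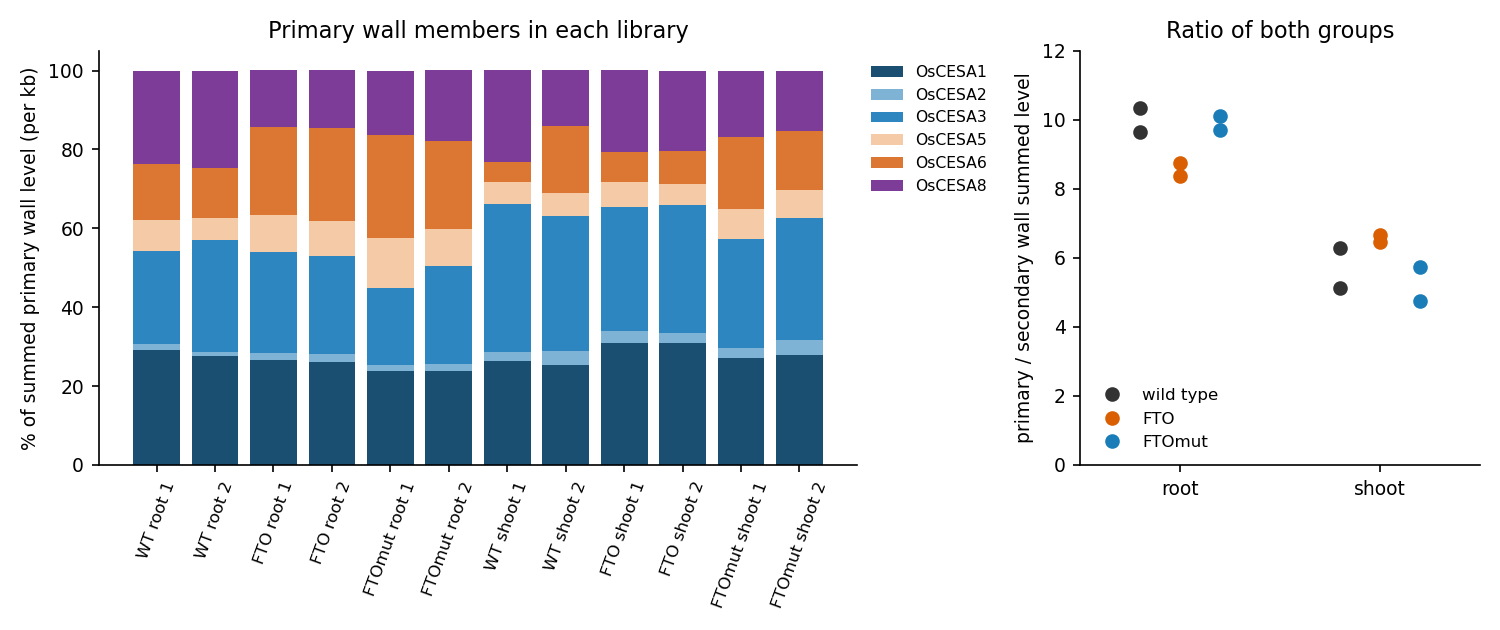
Left, each primary wall gene as a percentage of the summed primary wall level per kilobase in each library. Right, the summed primary wall level divided by the summed secondary wall level, 1 point per library. The root libraries lie between 8.38 and 10.3 and the shoot libraries between 4.75 and 6.67, and OsCESA8 (top block) is narrower in the transgenic roots than in wild-type root.

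Root was compared with shoot in a joint fit of the 12 libraries, where 38524 genes were tested. In wild type 1 CESA gene was called, OsCESA2, lower in root by -1.05 (SE 0.28, edgeR adjusted p = 0.0182), where 19.9% of all genes tested were called and 9.39% were lower in root. In FTO 7 genes were lower in root, all but OsCESA5 and OsCESA6, where 22.2% of genes were called and 12.7% were lower. In FTOmut 5 genes were lower in root, OsCESA2, OsCESA3, OsCESA4, OsCESA7 and OsCESA9, where 15.1% were called and 9.34% were lower. The counts of 7 and 5 of 9 exceed those shares, and no CESA gene was called higher in root in any genotype.

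OsCESA7 had the largest organ difference in FTO, at -1.93 (SE 0.32, edgeR adjusted p = 0.000779), and OsCESA4 in FTOmut, at -1.95 (SE 0.37, adjusted p = 0.00252). OsCESA2 stood at -1.82 (SE 0.29) in FTO and -1.90 (SE 0.28) in FTOmut, and OsCESA9 at -1.67 (SE 0.35) and -1.62 (SE 0.35). OsCESA1, OsCESA3 and OsCESA8 were lower in FTO root than in FTO shoot by 1.46 to 1.74 log2. These calls changed with single libraries. Many were lost when a library was left out, which leaves 1 library in a group and a smaller sample for every gene. The low-count filter and the scaling were also redone in each such fit. Without FTO root replicate 1, for example, 47158 genes were tested, against 38524 with all libraries. The estimates stayed below 0 in these fits, at -2.025 to -1.285 over the 7 genes called in FTO. Over the 5 genes called in FTOmut they ran from -2.447 to -0.406. The wild-type call was lost without any 1 of the 4 wild-type libraries, or without FTOmut shoot replicate 2.

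Spike-in scaling moved the median of all genes between root and shoot by more than a log2 unit, to -1.80 (wild type), -0.99 in FTO and -1.95 in FTOmut. Under it 7, 9 and 9 CESA genes were lower in root, where 35.3, 39.3 and 43.7% of all genes tested were called lower. Relative to those medians the CESA median was -0.014 in wild type, -2.25 in FTO and -1.13 in FTOmut.

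**Figure D4:**
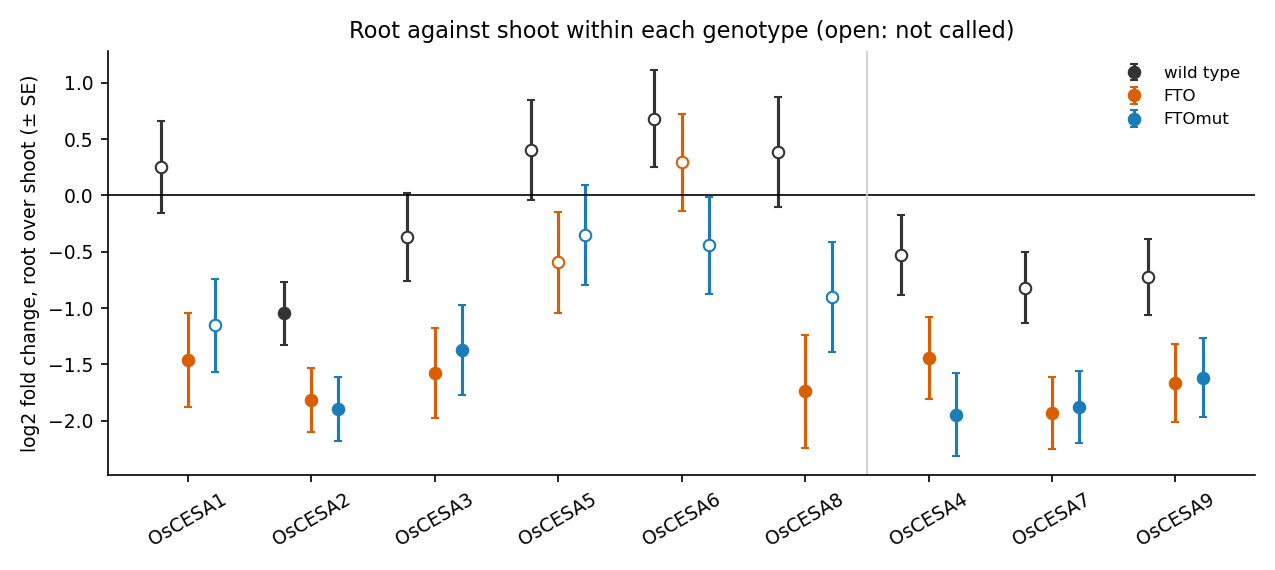
Log2 fold change of root over shoot (vertical axis, ± SE) for each CESA gene in wild type, FTO and FTOmut, from the joint fit of 12 libraries. Filled points passed the adjusted threshold. Wild type has 1 filled point, FTO 7 and FTOmut 5, all below 0.

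Whether a transgene's effect differed between root and shoot was tested directly. No CESA gene passed for FTO, where 3.31% of all genes were called, or for FTOmut, where 0.909% were called, and DESeq2 called 0 CESA genes in both. An unadjusted p under 0.05 was reached for FTO by OsCESA8 (-2.13, SE 0.70), OsCESA1 (-1.71, SE 0.58) and OsCESA7 (-1.11, SE 0.44), negative values meaning a lower effect in root. For FTOmut it was reached by OsCESA4 (-1.42, SE 0.50), OsCESA1 (-1.41, SE 0.58), OsCESA7 (-1.06, SE 0.44) and OsCESA2 (-0.85, SE 0.39). The smallest adjusted p was 0.122, for OsCESA8 in FTO. Without wild-type shoot replicate 1, OsCESA8 stood at -3.29 for FTO, in a fit with replicate 2 as the only wild-type shoot library. Without FTOmut shoot replicate 2 it stood at -2.05 for FTO. For FTOmut 4 genes passed without FTOmut shoot replicate 2 (OsCESA1, OsCESA4, OsCESA6 and OsCESA8), where 15.9% of all genes were called. With spike-in scaling OsCESA1 and OsCESA8 passed for FTO at -1.93 and -2.39.

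Across the 12 libraries the members did not all vary alike. Likeness was measured as the root mean square difference between centred log2 CPM, scaled over all 12 libraries, and the mean of a group. OsCESA1 lay closest to the primary wall mean at 0.18 log2 and OsCESA6 farthest at 0.64. OsCESA2, a primary wall gene by its assignment, lay at 0.50 from the primary wall mean, of which it is a part, and at 0.19 from the secondary wall mean. OsCESA3 was also nearer the secondary wall mean (0.25) than the primary wall mean (0.29). OsCESA4 (0.35) and OsCESA9 (0.36) were nearer the primary wall mean than its member OsCESA8 (0.37), so the measure did not separate the groups. The secondary wall genes lay at 0.10 to 0.14 from their own mean. Each member is part of its own group's mean, of 6 primary or 3 secondary wall genes, which draws it nearer. Distances of members to their own mean are therefore not comparable between the groups or with genes outside them. Among 63 other listed wall genes, the closest to the primary wall mean were LOC_Os02g50550 (0.27), LOC_Os09g32080 (0.28) and BC12 (0.31), a kinesin. Those closest to the secondary wall mean were LOC_Os06g06980 (0.25), CSLE1 (0.37) and BC12 (0.43).

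Of the other genes of cellulose formation more were lower than higher in the transgenic roots under TMM. Of all genes tested 35.1% were called in FTO root (18.8% lower, 16.3% higher). In FTOmut root 61.6% were called (29.1% lower, 32.5% higher). These shares are the background for this list and for the lists below. Of 6 genes on the cellulose machinery list, 4 were lower and 1 higher in FTO root (median -0.81) and the same numbers were called in FTOmut root (median -1.27). BC1, a COBRA-like protein needed for cellulose assembly in rice, fell by 1.83 in FTO (SE 0.26) and 1.51 in FTOmut (SE 0.25). BC12 fell by 0.76 (SE 0.20) and 1.27 (SE 0.21). LOC_Os09g32080 and LOC_Os05g07790 were the others lower in both. OsGLU1, a membrane-bound endoglucanase, rose by 1.147 (SE 0.31) and 1.03 (SE 0.30) and is named here because it alone was higher, after its values were seen. With spike-in scaling 1 of the 6 was lower and 1 higher in FTO root, and the FTOmut counts were the same. Under that scaling 7.45% of all genes tested were lower and 29.7% higher in FTO root, and 28.2 and 31.5% in FTOmut root.

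Of 6 loci listed as secondary wall transcription factors, 5 were lower in FTO root (median -1.62) and 4 in FTOmut root (median -1.79), with 0 higher. Of all genes tested 18.8% were lower and 16.3% higher in FTO root, and 29.1 and 32.5% in FTOmut root. The reference table does not pair these 6 loci with the listed names, so no role is given for them singly. LOC_Os04g50770 fell by 2.40 in FTO (SE 0.27) and 1.28 in FTOmut (SE 0.24), and LOC_Os01g18240 by 1.40 (SE 0.21) and 3.14 (SE 0.23). With spike-in scaling 3 of the 6 were lower in FTO root and 4 in FTOmut root. Of 7 lignin genes 4 were lower and 0 higher in FTO root (median -0.60), and 3 were lower and 2 higher in FTOmut root (median -0.26). With spike-in scaling 1 lignin gene was lower and 2 higher in FTO root. OsCOMT1, a methyltransferase of lignin synthesis, fell by 1.24 (SE 0.18) and 1.22 (SE 0.18). Of 4 xylan genes 1 was lower and 0 higher in FTO (median 0.54), and 1 lower and 1 higher in FTOmut (median -0.03). These xylan counts lie near the shares over all genes. The gene lower in both was OsGT43A, of the family that builds the xylan backbone, at -1.41 (SE 0.20) and -1.79 (SE 0.20).

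Sucrose synthases supply UDP-glucose, the substrate of CESA proteins. Of the 6 genes, SUS2 was the one that fell, by 1.07 in FTO root (SE 0.18) and 0.63 in FTOmut root (SE 0.18). SUS6 rose in FTO at 0.68 (SE 0.22), and SUS5 at 1.42 (SE 0.22) and SUS3 at 2.61 (SE 0.90) rose in FTOmut. SUS3 was near the floor, at 0.063 CPM per kilobase in wild-type root and 0.396 ± 0.251 (SD) in FTOmut root. The list medians were 0.33 and 0.18. The numbers of sucrose synthase genes called lie near the shares over all genes, 35.1% in FTO root and 61.6% in FTOmut root. With spike-in scaling 1 was lower and 2 higher in both lines.

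The cellulose synthase-like (CSL) family, relatives of CESA that build other wall polysaccharides, had 30 of 34 listed genes tested in root. In FTO 11 were lower and 5 higher (median -0.44), and in FTOmut 14 were lower and 5 higher (median -0.45). Of all genes tested 18.8% were lower and 16.3% higher in FTO, and 29.1 and 32.5% in FTOmut. With spike-in scaling 8 were lower and 9 higher in FTO root (median 0.08), while the median of all genes there moved from 0.19 to 0.69. By smallest adjusted p the leading genes in FTO were CSLF8 (-2.94, SE 0.31), CSLC9 (2.21, SE 0.24), LOC_Os08g33740 (-1.96, SE 0.22) and CSLF9 (2.12, SE 0.29). Those in FTOmut were CSLA7 (-2.36, SE 0.22), CSLC2 (-2.14, SE 0.22), CSLH1 (-1.73, SE 0.19) and CSLD2 (1.67, SE 0.21). CSLF genes take part in the synthesis of mixed-linkage glucan, a wall polysaccharide typical of grasses. In shoot 0 genes of all these lists were called, as for all genes. The root markers moved beside these lists, with 3 of 4 lower in FTO root, and 4 of 5 green-tissue markers were higher in FTOmut root, and their part in the results was not tested.

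m6A peaks were listed in 7 of the 9 CESA genes, at 11 sites, and in neither OsCESA3 nor OsCESA5. A site is a set of overlapping peaks on 1 strand over the 12 lists, and a peak is called replicated when peaks of both replicates overlap by at least 1 base. The lists give MeTPeak's fold of immunoprecipitate over input, which is the authors' value and is used only to describe peaks. No genome build is given for the lists in the sources used here, and coordinates are those of the lists. The lists name a gene for each peak but hold no exon or UTR labels.

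OsCESA8 carried a peak at chr7:5852771-5853060 on the minus strand in all 12 lists, with folds of 12.8 to 57.9. The folds were 12.8 and 17.9 in wild-type root, 57.9 and 23.2 in FTO root, and 25.5 and 26.0 in FTOmut root. In shoot wild type had 18 and 16.1, with FTO shoot at 37.0 and 32.5 and FTOmut shoot at 15.4 and 13.9. The FTO lists were above the wild-type lists in both organs, while the FTOmut lists were above them in root and below them in shoot. OsCESA2 carried a peak at chr3:33780393-33780792 on the minus strand in 11 lists, all but FTOmut root replicate 1, with folds of 15.0 to 40.0.

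OsCESA1 and OsCESA6 had peaks mainly in root. OsCESA1 had an upstream site at chr5:4571091-4571341 and a downstream site at chr5:4565327-4565577 on the minus strand, 5513 bases apart. Both were listed in all 6 root lists. In shoot the upstream site was in 1 list and the downstream site in 2, all of FTO. OsCESA6 had sites at chr7:8496319-8496874 and chr7:8501506-8501906 on the plus strand, each in 5 root lists, all but wild-type replicate 2, and in 0 and 1 shoot lists. The upstream OsCESA6 site had folds of 29.0 to 54.0.

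All 3 secondary wall genes had at least 1 listed peak. OsCESA4 had a downstream site at chr1:31428428-31428688 on the plus strand in 5 shoot lists, all but wild-type replicate 2, and 2 root lists, and an upstream site in 1 root and 1 shoot list. Its downstream folds in shoot were 11.8 in wild type, with FTO at 28.3 and 26.0 and FTOmut at 20.0 and 9.55. OsCESA7 had a site at chr10:17264669-17264968 on the plus strand in both wild-type root lists and in FTOmut root replicate 1, with folds of 6.00 to 10.8, and another in 1 list. OsCESA9 had a site at chr9:15285590-15285730 on the plus strand in 2 lists, with folds of 4.80 and 5.08. OsCESA7 and OsCESA9, with the fewest listed peaks among the 7 genes, stood at 9.67 and 10.4 per kilobase in wild-type root, while OsCESA2, with peaks in 11 lists, stood at 5.11. The part of read depth in the peak calls was not tested.

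**Figure D5:**
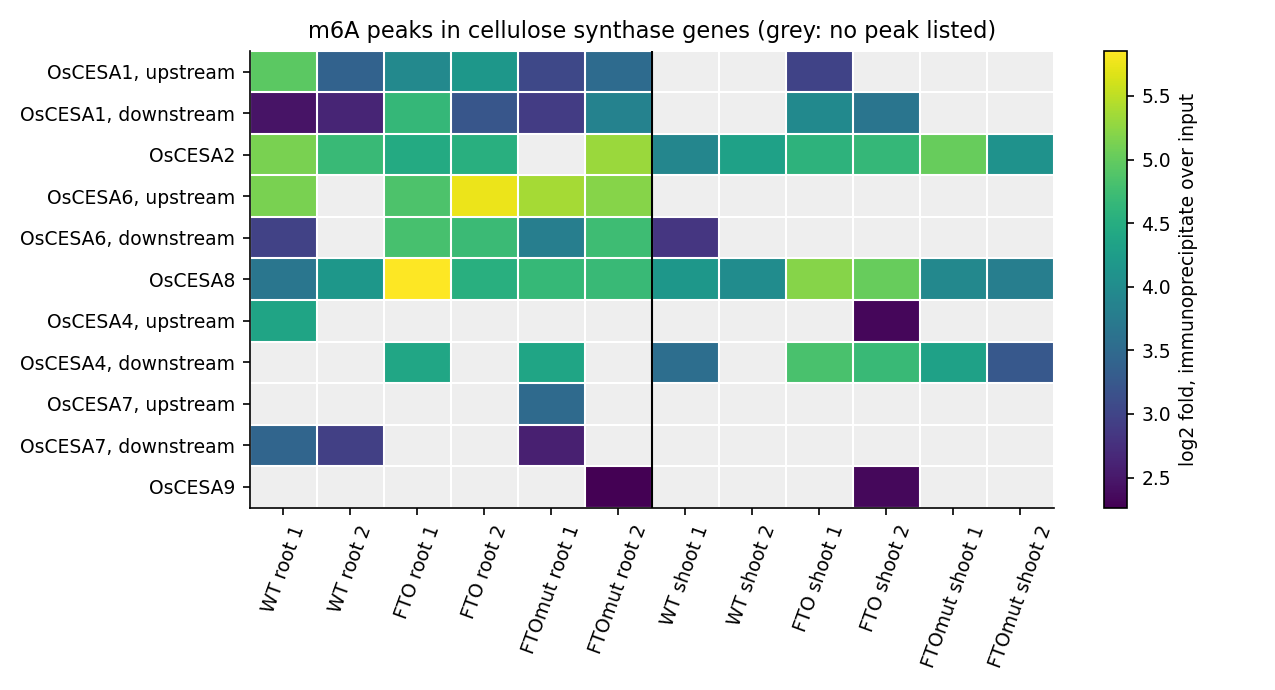
Fold of immunoprecipitate over input (colour, log2 of the authors' fold) at the 11 CESA peak sites (rows, upstream and downstream along the gene's strand) in the 12 peak lists (columns), with grey where no peak is listed. OsCESA8 is filled in all 12 columns, OsCESA2 in 11, and OsCESA1 and OsCESA6 are filled almost wholly in root.

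A replicated peak was present in 4 CESA genes in wild-type root, 4 in FTO root, 3 in FTOmut root, 2 in wild-type shoot, 4 in FTO shoot and 3 in FTOmut shoot. Of all genes tested, 33.1, 33.7 and 34.1% had a replicated peak in wild-type, FTO and FTOmut root, and 42.1, 45.2 and 43.9% in wild-type, FTO and FTOmut shoot. Out of 9 members the counts ran from 2 to 4, on either side of those shares.

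Of the 5 replicated CESA peaks in wild-type root, 1 was absent from both FTO lists, the OsCESA7 site, where 2.65% of all such peaks were absent. Of the 6 replicated in FTO root 0 were absent from wild type, where 4.7% of all were. Between wild-type and FTOmut root 0 of 5 were absent either way, where 4.92% of wild-type peaks and 6.69% of FTOmut peaks were. In shoot 0 of 2 wild-type peaks were absent from FTO (2.3% of all) and 0 of 2 from FTOmut (2.65% of all). Of the 4 replicated in FTO shoot 1 was absent from wild type, the downstream OsCESA1 site with folds of 15.7 and 12.6, where 5.2% of all were. Of the 3 replicated in FTOmut shoot 0 were absent from wild type, where 4.89% of all were. The transcript level of OsCESA7 in FTO root was below that in wild type without passing the test, and OsCESA1 in FTO shoot was above both wild-type shoot libraries.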

How the data were processed

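Gene tables hold the authors' deposited estimated counts per gene (featureCounts, HISAT2 2.1.0, Subread 1.6.4 and cutadapt 1.15, per the submitters' processing notes). Some counts end in a fraction and were rounded, and reads shared between similar CESA genes may be split. Per the labels' protocols ERCC RNA was added before removal of ribosomal RNA and the kit was directional, while another label reads polyA RNA. Each of the 12 gene peak lists was made by the authors with MeTPeak from 1 replicate of poly(A) RNA, per the labels, and each deposited list gives a fold (ratio) of immunoprecipitate over input, a p-value and the log10 of a false discovery rate. The deposited tables also give gene length in bases, used for levels per kilobase. Repeat tables were not used here.

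Genes were tested with edgeR 4.0.16 in R 4.3.3 (robust quasi-likelihood, TMM, filterByExpr, two-sided, Benjamini-Hochberg over all genes tested, threshold 0.05), within each organ for genotypes and over 12 libraries for organs, and the test was tried on simulated counts with known changes. Alternatives were DESeq2 1.42.0, other scalings, no filter, a replicate block, left-out libraries and fits of only the 4 libraries compared. Log2 CPM used a prior count of 0.5. Members and gene lists were chosen with earlier results of these data known. All 9 members are named, and up to 4 called genes per other list by smallest adjusted p. Names of 40 of 63 other wall genes matched the reference table, and the rest are given by identifier. The labels do not state separate cultures for replicates, so p-values measure only the spread between these samples, which may be technical. In whole organs, fewer cells of a type and less RNA per cell cannot be told apart.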

Additional observations from a re-analysis of the deposited data

Results flagged for a closer look

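No CESA gene had a transgene effect that differed between root and shoot past the threshold of edgeR's test. Of the 63 other listed wall genes 3 passed for FTO, and CSLF8 also for FTOmut. Of all genes tested 3.31% passed for FTO and 0.909% for FTOmut, so these counts lie near the background. CSLF8 had a FTO effect lower in root than in shoot by -2.42 (SE 0.55, adjusted p = 0.0343), with a change of -2.94 in root and -0.79 in shoot. Its FTOmut effect differed by -2.76 (SE 0.50, adjusted p = 0.0270), with -1.80 in root and 0.96 in shoot. CSLE1 had a FTO effect lower in root by -1.63 (SE 0.36, adjusted p = 0.0305), with -1.30 in root and 0.047 in shoot. LOC_Os06g04090 had a FTO effect lower in root by -1.9 (SE 0.44, adjusted p = 0.0369), with -1.11 in root and 0.50 in shoot. The organ values come from the separate fits and the difference from the joint fit. The groups are 2 libraries each, and what else moves with these differences was not tested.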

How the results depend on the processing

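With 2 libraries a group, single libraries moved many counts. The filter and scaling were redone for each left-out library, so a range need not include the value from all libraries. Across left-out libraries the genes called ran from 4825 to 18235 for FTO against wild-type root (CESA 1 to 6), 12371 to 33821 for FTOmut (CESA 5 to 9) and 2954 to 17741 for FTO against FTOmut (CESA 0 to 9). In shoot they ran from 0 to 3946 (CESA 0 to 1), 0 to 4305 (CESA 0 to 3) and 0 to 131 (CESA 0 to 0), and for root against shoot from 4182 to 9521 in wild type (CESA 0 to 1), 4339 to 10856 in FTO (CESA 0 to 7) and 3721 to 9587 in FTOmut (CESA 0 to 7). For the organ difference of effects they ran from 239 to 4429 for FTO (CESA 0 to 1) and 71 to 7286 for FTOmut (CESA 0 to 4). The mean log2 difference from wild type in root ran from -0.789 to -0.512 (primary) and -0.685 to -0.424 (secondary) in FTO, and -1.486 to -0.486 and -1.587 to -0.653 in FTOmut. In shoot it ran from -0.137 to 0.615 and -0.307 to 0.42 in FTO, and -0.515 to 0.679 and -0.523 to 0.455 in FTOmut. CESA genes with a listed peak ran from 4 to 6 (wild-type root), 4 to 5 (FTO root), 5 to 5 (FTOmut root), 2 to 4 (wild-type shoot), 4 to 5 (FTO shoot) and 3 to 3 (FTOmut shoot) when 1 list was taken alone. Signs changed for OsCESA6 in FTO (-0.204 to 0.123), OsCESA5 (-1.162 to 0.297) and OsCESA6 (-0.944 to 0.312) in FTOmut, and OsCESA5 (-0.57 to 0.926), OsCESA6 (-0.269 to 1.023) and OsCESA8 (-0.266 to 0.662) between FTO and FTOmut.

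Spike-in scaling turned OsCESA2 (0.424), OsCESA5 (0.299), OsCESA4 (0.11) and OsCESA9 (0.123) in FTO against wild-type root, OsCESA5 (0.498) in FTO against FTOmut root, and the FTO root means of the primary (0.029) and secondary (0.088) genes. It left 1 CESA call in FTO root (37.1% of all genes tested called), and gave 7 in FTO against FTOmut root (34.8%) and 2 for the difference of the FTO effect (4.36%). For root against shoot it gave 7 in wild type (38.2%) and 9 in FTOmut (45.2%). Over all genes it called 11297 in FTO against FTOmut root (10616 higher, 681 lower, against 4804 and 1777 under TMM), 1206 in FTO against FTOmut shoot, and 14718, 16186 and 17422 for root against shoot in wild type, FTO and FTOmut, of which 7.637, 6.58 and 3.387% were higher in root, against 52.69, 42.92 and 38.07%. In FTO against wild-type root 79.94% of calls were higher, against 46.46%. The FTO shoot means became 1.45 (primary) and 1.242 (secondary). DESeq2 called 41, 532 and 1388 genes in the 3 shoot comparisons, 2860 and 1815 for the differences of the FTO and FTOmut effects, and 2 CESA genes for root against shoot in wild type (23.8% of all genes tested called). Scaling by relative log expression gave 560 genes for the difference of the FTOmut effect and 2 CESA genes for wild-type root against shoot (20.3% of all genes tested called). With no filter the shoot counts were 98, 241 and 1024, and the difference of the FTOmut effect had 603. OsCESA6 then stood at -0.121 in FTO root. CESA calls for root against shoot with no filter were 0, 2 and 3 in wild type, FTO and FTOmut. Of all genes tested there 5.08, 6.06 and 4.7% were called lower in root, and 6.05, 6.93 and 3.38% higher. Fits of only the 4 libraries compared called 3786 genes in FTO against FTOmut shoot and put OsCESA6 at 0.011 in FTOmut root. In FTO root they called 5 CESA genes, where 58.7% of all genes tested were called and 29.5% were lower. Between FTO and FTOmut root OsCESA8 was at -0.018 with DESeq2 and relative log expression and -0.043 with 4 libraries. Without the 2 chromosome 9 loci in the totals, the FTO root means were -0.634 and -0.575. Among peaks above the median fold of their list, 0 CESA genes had a replicated peak in wild-type root, FTO root, wild-type shoot and FTOmut shoot, and 1 in FTOmut root and FTO shoot. This cut leaves out lower peaks of every gene. The share of all genes that keep a replicated peak under it was not computed, so these counts have no background. The labels tie no replicate number to a shared batch. Same-number deviations correlated at 0.465 between wild-type and FTOmut root and at -0.19 to 0.147 between the other pairs of groups. With the replicate block in edgeR 23.1% of all genes tested were called between FTO and FTOmut root. Of the CESA genes 2 differed there, OsCESA4 (0.62, adjusted p = 0.0279) and OsCESA9 (0.58, adjusted p = 0.0498), and OsCESA5 stood at 0.072. Under the block OsCESA7 passed in FTO root at -0.525, where 38.4% of all genes tested were called. Left-out libraries aside, 229 of the single-gene values under these settings kept their direction and call, 20 gained a call, 12 lost it and 11 changed sign. With left-out libraries 181 kept both and 9 changed sign, and more lost a call than gained one. The cause of these changes was not tested. Left-out fits also have a smaller sample, and their filter and scaling were redone.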
